A study of Mus musculus with 8 samples.

Results

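The far intergenic peaks described here were differential open-chromatin peaks of the embryonic heart that lay outside genes and far from any annotated gene start. A peak was included if it overlapped no transcript of GENCODE release M21, if the nearest annotated transcription start site (TSS) was more than 50 kb away, and if no more than 50% of its bases were marked as repeat in the mouse genome sequence (mm10). Of the 15736 listed peaks, 760 met the rule. They comprised 594 peaks with higher signal in *Chd4-CMko* hearts (gained peaks) and 166 with higher signal in WT hearts (lost peaks). All 760 had the same width, and the sequences below show it. A further 145 far intergenic peaks had more than 50% of their bases marked as repeat and were left out.

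ATAC-seq, which uses the transposase Tn5 to cut and tag accessible DNA, was performed on whole mouse hearts at E10.5, with 4 WT and 4 *Chd4-CMko* samples, each a pool of hearts. In *Chd4-CMko* embryos a floxed *Chd4* allele is deleted by a Cre driven from *Tnnt2*, a gene of cardiomyocytes, so the other cells of the heart keep *Chd4*. WT samples were littermates per the methods. The cross given there for embryos of this age paired *Chd4* fl/fl females with males carrying *Tnnt2* Cre/+ and *Chd4* fl/+. Every embryo of that cross inherits a floxed allele from its mother, so WT hearts from it are not free of floxed alleles. Whether they carry Cre is not stated. Embryos of either genotype had no treatment. A change in cell composition and a change in the chromatin of one cell type cannot be told apart in these pooled samples. The deposited lists held differential peaks only, with 1 score per peak and no value per sample or expression, so the tissue could not be checked against marker genes, and neither a replicate error nor a p-value could be computed. The 95% intervals (Wilson for a share, Newcombe for a difference of shares) cover counting error over peaks only, and neighbouring peaks are not independent.

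CHD4 is the ATPase of the NuRD complex, which moves nucleosomes and removes acetyl groups from histones, and in the heart it is known for keeping genes of other lineages silent. Distal enhancers are short accessible stretches that bind several transcription factors at once and contact promoters over long distances by chromatin looping. Gene deserts are long stretches without protein-coding genes. Those that flank developmental transcription factor genes are known to hold many such enhancers, whereas the deserts beside neuronal adhesion genes are among the longest in mammals.

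The sequences below show what these peaks look like, in the orientation of the plus strand of mm10, read from the RefSeq copy of that assembly. Capitals mark matches to any of the 14 motifs searched. The first pair are the gained peaks with the highest scores. The peak between *Actrt2* and *Ttc34* held an NFY motif, and the peak between *Slc45a1* and *Errfi1*, which encodes a feedback inhibitor of the EGF receptor, held a GATA motif.
chr4:154785523-154785673, gained: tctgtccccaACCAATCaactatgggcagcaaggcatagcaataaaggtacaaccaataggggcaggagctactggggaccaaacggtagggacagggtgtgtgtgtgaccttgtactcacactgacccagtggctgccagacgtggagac
chr4:150748562-150748712, gained: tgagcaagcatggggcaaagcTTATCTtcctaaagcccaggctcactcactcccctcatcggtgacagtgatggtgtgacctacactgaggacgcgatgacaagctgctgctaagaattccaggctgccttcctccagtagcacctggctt

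The next pair are the lost peaks with the highest scores, one in the desert between *Myc*, the growth-promoting transcription factor, and *Gsdmc*, and one between *Fut8* and *Gm6657*. The first held an NKX2 motif and the second none of the 14.
chr15:63066108-63066258, lost: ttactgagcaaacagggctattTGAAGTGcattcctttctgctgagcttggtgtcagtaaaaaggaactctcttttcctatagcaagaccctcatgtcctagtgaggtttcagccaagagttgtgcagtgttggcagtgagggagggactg
chr12:78089791-78089941, lost: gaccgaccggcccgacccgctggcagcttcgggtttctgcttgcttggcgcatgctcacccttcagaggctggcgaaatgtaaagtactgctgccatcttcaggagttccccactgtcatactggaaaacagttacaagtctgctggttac

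The following 3 gained peaks lay beside genes of cardiac transcription factors, between *Irx1* and *Irx2*, between *Med13l* and *Tbx3*, and between *Tbx5* and *Rbm19*. The first and the second held no motif, and the third held an E-box.
chr13:72134398-72134548, gained: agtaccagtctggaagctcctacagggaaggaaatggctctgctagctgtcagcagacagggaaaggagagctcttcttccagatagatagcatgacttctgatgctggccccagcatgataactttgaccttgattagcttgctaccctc
chr5:119449347-119449497, gained: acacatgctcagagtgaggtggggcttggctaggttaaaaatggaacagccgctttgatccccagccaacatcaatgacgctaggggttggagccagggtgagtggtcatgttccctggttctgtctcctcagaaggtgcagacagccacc
chr5:120014062-120014212, gained: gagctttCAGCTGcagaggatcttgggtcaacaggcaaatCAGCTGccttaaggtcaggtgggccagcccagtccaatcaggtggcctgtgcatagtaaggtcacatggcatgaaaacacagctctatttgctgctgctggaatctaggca

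Motifs of cardiac transcription factors occurred together in some gained peaks. The examples are the peak between *Cd109* and *Col12a1*, with GATA, NKX2 and ETS motifs, and the peak between *Gm11077* and *Pde3a*, with a TBX motif and an E-box.
chr9:78879136-78879286, gained: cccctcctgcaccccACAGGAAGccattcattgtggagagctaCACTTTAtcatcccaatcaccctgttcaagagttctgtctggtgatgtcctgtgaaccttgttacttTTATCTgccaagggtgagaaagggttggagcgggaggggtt
chr6:140888735-140888885, gained: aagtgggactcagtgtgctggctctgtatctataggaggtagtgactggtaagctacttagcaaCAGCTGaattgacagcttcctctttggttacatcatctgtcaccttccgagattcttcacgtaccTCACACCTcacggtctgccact

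The last sets show the motifs that differed most between the lists or were most frequent relative to the genome. Gained peaks with both an NFY and a KLF motif lay between *H2al1j* and *Bcor* and between *Gm12728* and *Usp24*. Lost peaks with a CTCF motif lay between *Adra1b* and *Il12b* and between *Dkk2* and *Gimd1*.
chrX:11415762-11415912, gained: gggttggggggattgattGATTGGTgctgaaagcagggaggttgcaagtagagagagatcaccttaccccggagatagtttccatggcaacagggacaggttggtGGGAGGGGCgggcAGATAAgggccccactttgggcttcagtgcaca
chr4:106042658-106042808, gained: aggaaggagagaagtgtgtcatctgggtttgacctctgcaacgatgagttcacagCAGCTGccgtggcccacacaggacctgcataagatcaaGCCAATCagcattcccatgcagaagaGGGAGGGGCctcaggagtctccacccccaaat
chr11:44331573-44331723, lost: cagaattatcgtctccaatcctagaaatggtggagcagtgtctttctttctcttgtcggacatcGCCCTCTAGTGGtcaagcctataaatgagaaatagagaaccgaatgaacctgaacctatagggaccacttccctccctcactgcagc
chr3:132207601-132207751, lost: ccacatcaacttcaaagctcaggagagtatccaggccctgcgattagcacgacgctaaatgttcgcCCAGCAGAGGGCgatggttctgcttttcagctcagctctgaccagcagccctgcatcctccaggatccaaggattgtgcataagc

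Gained peaks made up 78.2% of the far intergenic peaks (594 of 760, 95% interval 75.1 to 81.0%), against 82.6% of all listed peaks. The difference from all other peaks, 82.8% of which were gained, was -4.62 percentage points (95% interval -7.75 to -1.76). It was also below that of intergenic peaks 3 to 50 kb from a TSS under the same repeat limit, at 82.2% (2936 of 3574), and above that of intronic peaks more than 50 kb from a TSS, at 72.4% (453 of 626). The differences from these sets were -3.99 points (95% interval -7.30 to -0.92) and 5.79 points (95% interval 1.24 to 10.4). Seen from the lists, 4.57% of gained peaks (594 of 12991) and 6.05% of lost peaks (166 of 2745) were far intergenic, a difference of -1.48 points (95% interval -2.49 to -0.56). With each list limited to scores at or above its own median they were -5.34 points for the gained share (95% interval -11.1 to -0.44) and -1.10 points for the shares of the lists (95% interval -2.32 to -0.09). When both lists were limited to scores of at least 36.8, the median of the lost list, the gained share differed from that of all other peaks by -0.031 points (95% interval -3.31 to 2.64) and the shares of the lists differed by -0.012 points (95% interval -1.23 to 0.98). That limit kept 414 of 594 gained and 55 of 166 lost far intergenic peaks. Whether the scores of both lists share a scale is not stated. Their steps differed, with a smallest gap between scores of 0.5 in the gained and 0.2 in the lost list, so a common limit may not mean the same in both.

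Within the far intergenic set the gained share was lower in the bins farther from a TSS. It was 80.8% at 50 to 100 kb (425 of 526), 74.3% at 100 to 200 kb (150 of 202) and 59.4% beyond 200 kb (19 of 32), with 95% intervals of 77.2 to 83.9%, 67.8 to 79.8% and 42.3 to 74.5%. Neighbouring bins had overlapping intervals. Accordingly, 28.5% of gained and 39.2% of lost peaks lay more than 100 kb from a TSS, a difference of -10.7 points (95% interval -19.1 to -2.67). The median distance to the nearest TSS of any gene type was 75.7 kb for gained peaks (range 50.01 to 296 kb) and 81.9 kb for lost peaks (range 50.7 to 447 kb). To the nearest protein-coding TSS the medians were 140 kb and 173 kb, since a protein-coding TSS was the nearest for only 206 of the 760 peaks. At the 50 kb limit, the closest gained peaks stood at 50006 bp inside and 49989 bp outside, and the closest lost peaks at 50729 bp inside and 49493 bp outside.

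**Figure D1:**
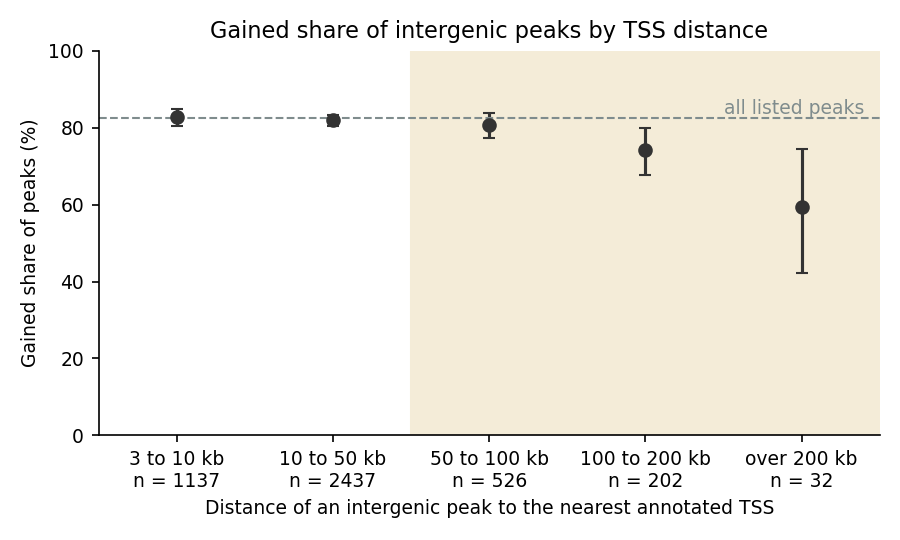
Gained share (%) of intergenic peaks in 5 bins of distance to the nearest annotated TSS. Points are shares, bars Wilson 95% intervals over peaks, the shaded bins are the far intergenic peaks and the dashed line is the share of all listed peaks (82.6%). The share is 82.7% at 3 to 10 kb and 59.4% beyond 200 kb, where only 32 peaks remain.

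The peaks furthest from any TSS lay in large deserts. The gained peaks were 296 kb and 261 kb from the nearest TSS between *Pard3*, a cell polarity gene, and *Nrp1*, a receptor of semaphorins and VEGF, and 289 kb between *Arpp21* and *Pdcd6ip*. The lost peaks were 447 kb away between *Kcnt2* and *Cdc73*, 333 kb between *Nxph1* and *Ndufa4*, and 318 kb in the same gap between *Pard3* and *Nrp1*. That gap of 746 kb held 4 gained and 1 lost peak, and its lost peak held MEF2 and TEAD motifs.

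Scores, which order the peaks within a list, were lower than those of intergenic peaks nearer to a TSS. Of the gained far intergenic peaks 31.5% reached the median score of the gained list, against 44.1% of gained intergenic peaks at 3 to 50 kb (difference -12.7 points, 95% interval -16.7 to -8.42). Of the lost far intergenic peaks 33.1% reached the median of the lost list, against 45.9% at 3 to 50 kb (difference -12.8 points, 95% interval -20.5 to -4.40). For intronic peaks beyond 50 kb the shares were 35.1% (159 of 453) and 38.7% (67 of 173). The gained far intergenic scores ran from 21.5 to 327 with a median of 47.5, and the lost scores from 15.6 to 126.7 with a median of 31.5.

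The highest gained score, 327, ranked 231 in the gained list and lay 51.8 kb from *Ttc34* at chr4:154785523-154785673. The next, 276, lay 96.4 kb from *Slc45a1* and 105 kb from *Errfi1* at chr4:150748562-150748712. The peak with a score of 270 lay 53.9 kb from *Dusp4*, a phosphatase that switches off MAP kinases. The peak with a score of 249 lay 94.5 kb from *Sipa1l2* and was GC-rich, at 69.5% GC. The peak with a score of 247.5 lay 162 kb from *Ank*, a pyrophosphate transporter.

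Among lost peaks the highest score was 126.7, rank 59 in the lost list, at chr15:63066108-63066258. It lay 1079 kb from *Myc* and 743 kb from *Gsdmc*. A gained peak with a score of 37 was in the same gap, 509 kb from *Myc*. The next lost scores were 109.5 beside *Fut8*, 90.1 at 109 kb from *Arhgap5*, 81.7 in the gap of 1794 kb between *Kcna4* and *Mettl15*, and 79.8 at 227 kb from *Sox6*, a transcription factor of muscle and cartilage.

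The far intergenic peaks were richer in GC than the eligible sequence of the genome. GC content was 53.1% ± 5.96 (SD over 594 peaks) in gained and 49.3% ± 5.31 (SD over 166 peaks) in lost peaks, a difference of 3.76 points (95% interval 2.82 to 4.70). All end-to-end windows of that width in the genome that met the same rule, 1729955 windows or 261 Mb, averaged 38.3%. Gained peaks at 3 to 50 kb from a TSS had 54.5% GC and lost ones 50.3%, so the far intergenic peaks of both lists were slightly less GC-rich, with differences of -1.39 points (95% interval -1.92 to -0.86) and -0.99 points (95% interval -1.90 to -0.07). Intronic peaks beyond 50 kb had 52.5% GC in the gained and 49.1% in the lost list. The gained share differed between classes of GC content. Among far intergenic peaks it was 59.0% for peaks of 40 to 45% GC (36 of 61) and 92.5% for peaks of 55 to 60% GC (135 of 146), and among peaks at 3 to 50 kb it was 56.8% (113 of 199) and 88.3% (719 of 814) in the same classes. CpG dinucleotides numbered 2.19 per gained and 1.92 per lost peak, a difference of 0.27 (95% interval -0.05 to 0.59), against 0.83 per window. Peaks without any base marked as repeat made up 51.3% of gained and 67.5% of lost peaks (difference -16.1 points, 95% interval -23.9 to -7.67). Any part of GC content in the other differences between the lists was not tested, except for the motifs below.

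**Figure D2:**
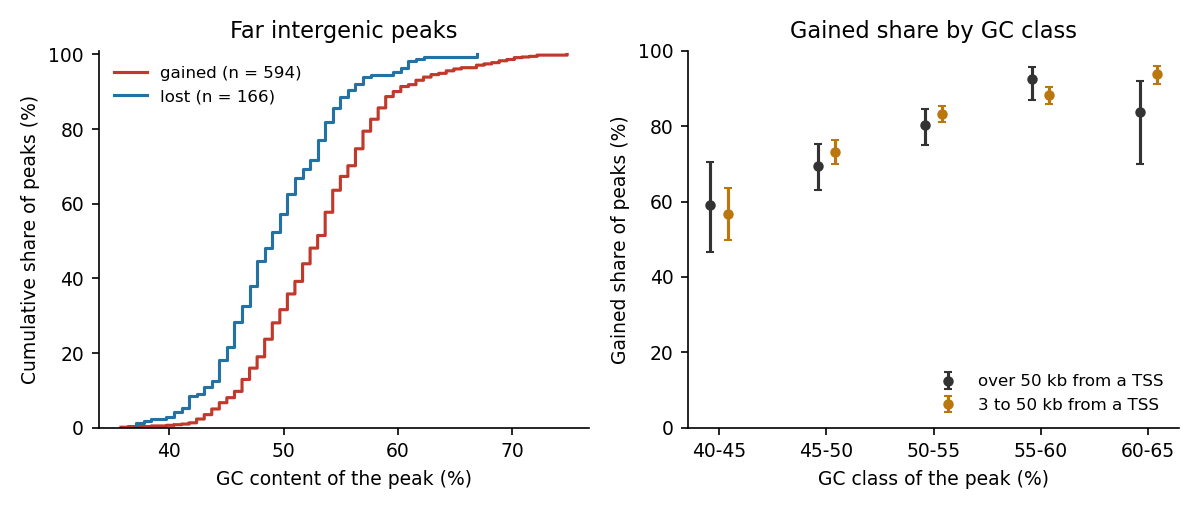
Left, cumulative share (%) of far intergenic peaks by GC content (%), with 594 gained peaks in red and 166 lost peaks in blue. Right, gained share (%) in classes of GC content for peaks over 50 kb (dark) and 3 to 50 kb (orange) from a TSS, with Wilson 95% intervals over peaks. The gained curve lies to the right, and the gained share is 59.0% at 40 to 45% GC and 92.5% at 55 to 60% GC among far intergenic peaks.

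Per eligible Mb the genome held 2.27 gained and 0.64 lost far intergenic peaks, against 5.60 and 1.22 intergenic peaks at 3 to 50 kb. All 19 autosomes held more gained than lost far intergenic peaks, with a gained share from 53.6% on chromosome 16 (15 of 28) to 90% on chromosome 10 (18 of 20). Chromosome X carried 12 gained and 3 lost peaks, and chromosome Y none.

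About 1 in 2 far intergenic peaks lay in a gene desert, defined as a gap of at least 500 kb between the bodies of neighbouring protein-coding genes. The share was 52.5% for gained peaks (312 of 594, 95% interval 48.5 to 56.5%) and 59.6% for lost peaks (99 of 166, 95% interval 52.0 to 66.8%). The difference of -7.11 points had a 95% interval of -15.3 to 1.47. Of the windows that met the same rule 79.1% lay in deserts, so that both lists were less frequent in deserts than the eligible sequence itself. The median gap around a gained peak was 532 kb and around a lost peak 629 kb, against 1156 kb around a window. With deserts of at least 1 Mb the difference between the lists was -12.6 points (95% interval -20.7 to -5.06), and with the common score limit it was 1.28 points (95% interval -12.5 to 14.7).

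The 760 peaks fell into 459 of the 1938 gaps that held eligible sequence. Of these gaps 291 held 1 peak and 73 held 3 or more. Gained peaks alone were found in 313 gaps, lost peaks alone in 86, and both in 60. Of the 667 deserts with eligible sequence 226 held a peak, and of the 77 deserts of at least 2 Mb, 30 did.

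Some gaps held several gained peaks. The gap of 955 kb between the cadherin genes *Cdh26* and *Cdh4*, which encode cell adhesion proteins, held 10 gained peaks with scores from 23.5 to 112, and 2 lost peaks with scores of 35.7 and 40.5. All 10 gained peaks lay between 52.5 and 425 kb from the TSS of *Cdh26*, and 1 of the lost peaks lay 135 kb from *Cdh4*. The gap of 813 kb between *Matn1*, a matrix protein gene of cartilage, and *Ptpru*, a receptor tyrosine phosphatase gene, held 6 gained peaks (scores 29 to 89) and no lost peak. The gap of 382 kb between *Map1b*, a microtubule-associated protein gene, and *Cartpt*, a neuropeptide gene, also held 6 gained peaks (scores 46 to 102), which all lay within 228 to 308 kb of *Map1b*. A further 5 gaps held 5 gained peaks each, among them the gap between the transcription factor gene *Tfap2c* and *Bmp7*, a ligand of the BMP pathway, with scores from 33 to 121.5.

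The gaps with most lost peaks held 3 each. Between *Rasgrp1* and *Thbs1*, the gene of thrombospondin 1, the 3 lost scores were 34.2, 37.5 and 18.3, and 1 gained peak had a score of 40.5. Between *Dok5* and *Cbln4* the 3 lost scores were 33.7, 36.1 and 17.6. The 3 gained peaks of that gap lay together at 179 to 193 kb from *Cbln4*, with scores from 27.5 to 33.5. Another 14 gaps held 2 lost peaks.

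**Figure D3:**
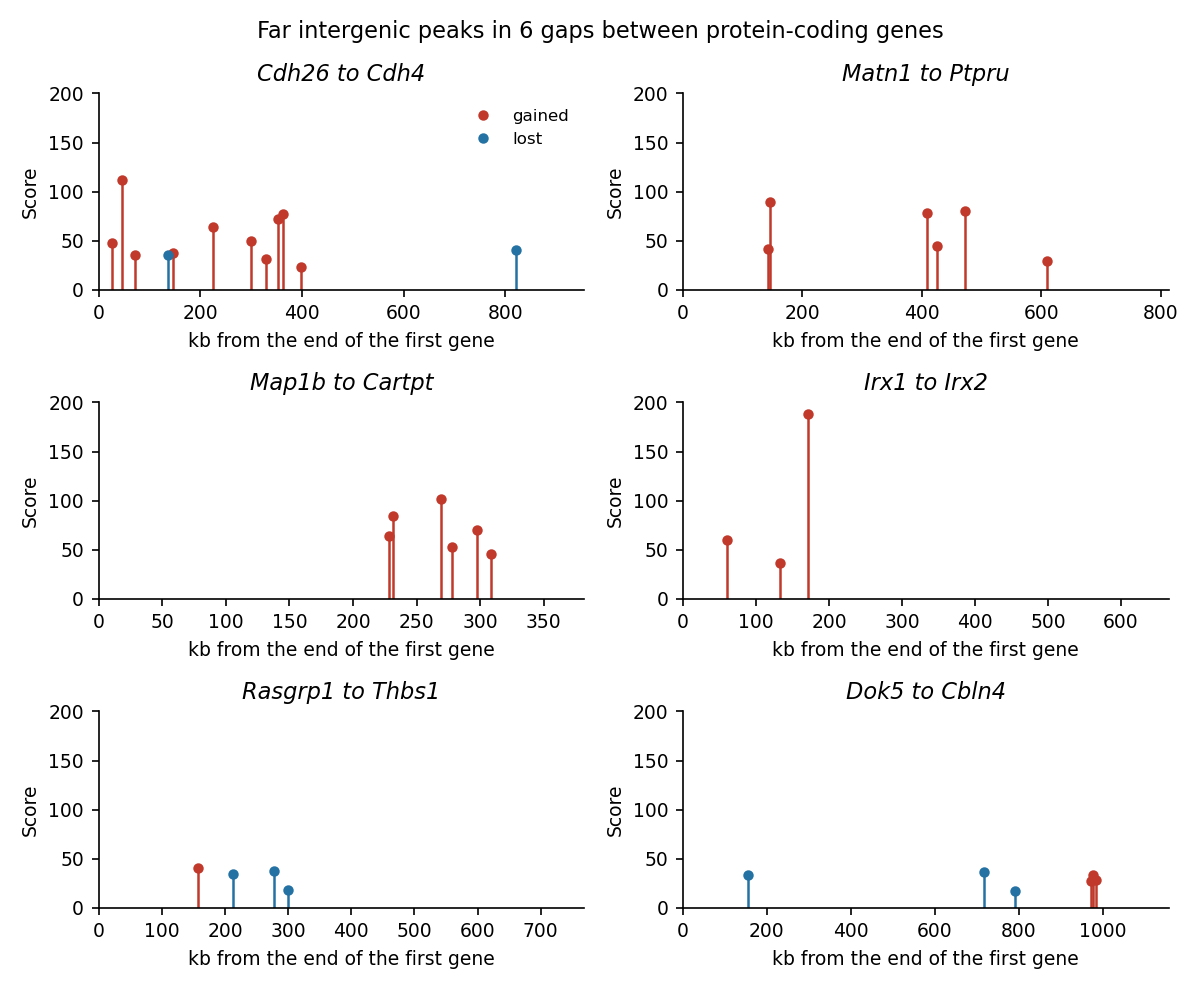
Score of each far intergenic peak (y axis, each peak's own list) against its distance in kb from the end of the first gene (x axis) in 6 gaps between neighbouring protein-coding genes. Red stems are gained and blue stems lost peaks, and each x axis spans the whole gap. The 10 gained peaks between *Cdh26* and *Cdh4* lie in the first part of the gap, and the 6 between *Map1b* and *Cartpt* in the part away from *Map1b*.

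Gaps with peaks of both lists were led by that between *Cdh26* and *Cdh4* (12 peaks). It was followed by *Mphosph6* to *Cdh13*, *Adgrl2* to *Adgrl4*, and *Dok5* to *Cbln4*, with 6 peaks each, and 6 gaps had 5 peaks, including that between *Fam49a* and the transcription factor gene *Mycn* and that between *Insc* and *Sox6*. In the last, the 2 lost peaks lay between gained peaks. Peaks of opposite direction also lay near each other in some cases. A lost peak lay within 10 kb of 8 gained peaks (1.35%) and a gained peak within 10 kb of 7 lost peaks (4.22%), and within 50 kb the counts were 25 gained (4.21%) and 21 lost peaks (12.7%).

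Gained peaks had close neighbours of their own list more often than lost peaks, but not more often than the gained list as a whole. Another gained far intergenic peak lay within 10 kb of 104 of 594 (17.5%, 95% interval 14.7 to 20.8%), whereas none of the 166 lost peaks had another lost one within that distance (95% upper limit 2.26%). The difference was 17.5 points (95% interval 13.9 to 20.8). Within 50 kb the shares were 37.7% (224 of 594) and 6.63% (11 of 166). The lists differ in size, and a longer list has closer neighbours. Over the whole lists, 22.4% of the 12991 gained peaks and 5.50% of the 2745 lost peaks had another of their own list within 10 kb. Counted in the same way, against any peak of the list, the share was 20.4% of gained (121 of 594) and none of the lost far intergenic peaks. Within 50 kb it was 51.7% of gained and 10.8% of lost far intergenic peaks, against 63.4% and 19.5% of the whole lists. The part of list size in the difference was not tested.

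Genes of developmental transcription factors, such as the Sox, Irx, Tbx, Meis and Tshz families, flanked 17.8% of gained peaks (106 of 594, 95% interval 15.0 to 21.1%), 12.05% of lost peaks (20 of 166, 95% interval 7.94 to 17.9%) and 10.3% of eligible windows. The lists differed by 5.80 points (95% interval -0.70 to 11.1). Gained intergenic peaks nearer to genes had such a gene beside them in 12.1% of cases, 5.72 points fewer than far intergenic gained peaks (95% interval 2.60 to 9.19 points). Within deserts the shares were 21.5% of gained peaks (67 of 312), 14.1% of lost peaks (14 of 99) and 10.9% of windows. Of the 399 genes of this list, 150 had eligible sequence beside them, 60 a gained peak and 18 a lost peak. *Irx2* had most gained peaks (6), followed by *Irx1* and *Tfap2c* with 5.

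Genes of cardiac transcription factors, 45 of whose 50 members also belong to the developmental list, flanked 24 gained peaks (4.04%, 95% interval 2.73 to 5.94%) and 1 lost peak (0.60%, 95% interval 0.11 to 3.33%). The difference was 3.44 points (95% interval 0.41 to 5.40), and the share of windows was 2.25%. The interval included 0 under 5 of 12 alternatives, among them the nearest protein-coding TSS alone (2.36 points, 95% interval -0.10 to 3.92) and the limit to scores at or above the median of each list (3.74 points, 95% interval -3.06 to 7.52). The 25 peaks lay in 16 gaps, 12 of them deserts.

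The Iroquois family, whose genes pattern heart and limb and include *Irx4* of the ventricles, had 9 of these 25 peaks beside its genes. Between *Irx1* and *Irx2* the gained scores were 188.5, 59.5 and 37.0, at 171, 60.1 and 133 kb from *Irx1*. Between *Irx2* and *Irx4* they were 46.5, 46.5 and 25, one of them with an SRF motif. On the other side of *Irx1*, towards *Adamts16*, they were 80.0 and 33.5. A further gained peak, with a score of 27.0, lay 97.1 kb from *Irx6* at the second Iroquois cluster. No lost peak lay in any of these gaps.

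Between *Gata6*, a zinc finger factor of heart and endoderm, and *Rbbp8* the gained scores were 170.5, 89.5 and 78.5, at 181, 175 and 334 kb from *Gata6*. The strongest of them had 72.2% GC and matched TEAD, NKX2, E-box and KLF motifs. Between *Med13l* and *Tbx3*, a T-box repressor of the conduction system, the scores were 119 and 49.5, at 221 and 857 kb from *Tbx3*. This gap spans 905 kb, so the second peak lay nearer to *Med13l*. A single gained peak with a score of 64.0 lay 178 kb from *Tbx5*, the T-box factor of atria and left ventricle, and 102 kb from *Rbm19*.

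*Meis1*, a homeodomain factor, had gained peaks on both sides, with scores of 59.5 and 45 towards *Spred2* and 38.5 towards *Etaa1*. The first and the second lay 767 bp apart. Single gained peaks lay 107 kb from *Hand2*, a factor of the right ventricle (47.5), 827 kb from *Isl1*, a factor of the second heart field (45.5), and 60.2 kb from *Meis2* (42.5). Others lay 248 kb from *Myocd*, a coactivator of SRF (35.5), and 2620 kb from *Nr2f1*, a factor of the atria (28.5). The last of these was much nearer to *Arrdc3*, at 63.2 kb, and the *Isl1* peak, in a gap of 1196 kb, was nearer to *Itga1*. The values in parentheses are scores. The only lost peak beside a cardiac factor gene lay 260 kb from *Zfpm2*, a cofactor of GATA proteins, with a score of 17.4.

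Genes of signalling pathways flanked 10.1% of gained and 12.05% of lost peaks (difference -1.95 points, 95% interval -8.17 to 2.96), against 8.26% of windows. Of the 80 genes of this list with eligible sequence beside them, 33 had a gained peak and 18 a lost peak. *Bmp7* was beside 5 gained peaks and *Epha4*, an ephrin receptor, beside 4 gained and 1 lost. *Fgf12* and *Fzd1*, a Wnt receptor, had most lost peaks, with 2 lost and 1 gained each. The genes named here were chosen for their counts after the values were seen. Neuronal and adhesion genes flanked 11.8% of gained peaks (70 of 594) and 15.7% of lost peaks (26 of 166, difference -3.88 points, 95% interval -10.6 to 1.65). Both shares were below the 24.1% of windows. They were above those of intergenic peaks at 3 to 50 kb, by 7.22 points for gained peaks (95% interval 4.73 to 10.2).

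**Figure D4:**
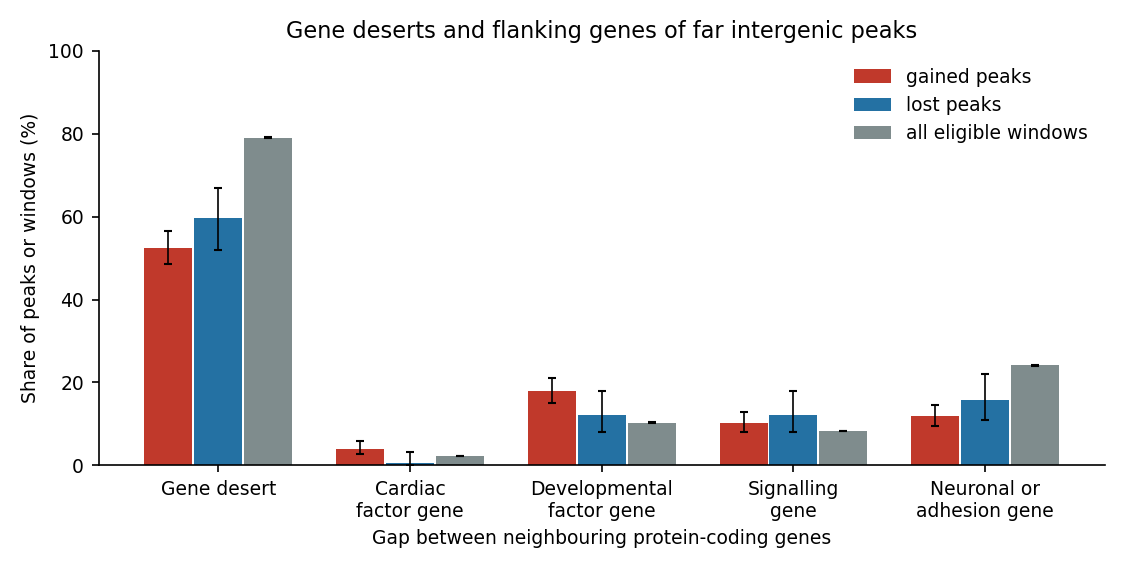
Share (%) of 594 gained peaks (red), 166 lost peaks (blue) and 1729955 eligible windows (grey) that lie in a gene desert or beside a gene of each list, with Wilson 95% intervals. Deserts hold 79.1% of windows but 52.5% of gained peaks, developmental factor genes flank 17.8% of gained peaks against 10.3% of windows, and neuronal or adhesion genes flank 11.8% against 24.1%.

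A gene beside a far intergenic peak could also carry a differential peak at its own promoter, within 3 kb of its TSS. A flanking gene with a gained promoter peak was found for 29.0% of gained peaks (172 of 594) and 24.1% of lost peaks (40 of 166), a difference of 4.86 points (95% interval -3.01 to 11.8), against 21.2% of windows and 34.7% of gained peaks at 3 to 50 kb (1018 of 2936). A flanking gene with a lost promoter peak was found for 3.87% of gained and 3.01% of lost peaks, against 2.74% of windows. Promoter peaks are no members of the far intergenic set. Among the 15 cardiac factor genes beside a far intergenic peak, *Irx1* and *Meis2* had a gained promoter peak, and *Meis2* also a lost one.

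The peaks were searched on both strands for 14 motifs. Their letters are given with each result, with N for any base. The MEF2, SRF and CTCF motifs were longer consensus strings and are named only. At least 1 motif was present in 66.8% of gained peaks (397 of 594) and 62.7% of lost peaks (104 of 166), against 40.7% of all eligible windows. That window share was not weighted by GC content. Matches of different motifs seldom shared bases, with GATA and NKX2 doing so in 2 peaks and 3 other pairs in 1 peak each. Since many motifs depend on base composition, the share of each single motif is set beside that of windows weighted to the GC content of the same peaks. A match is a description of the letters present and not evidence of binding.

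Motifs of GC-rich promoters separated the lists most. KLF, the motif of Krüppel-like and Sp factors (searched as GGGNGNGGC), was present in 15.2% of gained peaks (90 of 594) and 2.41% of lost peaks (4 of 166), a difference of 12.7 points (95% interval 8.25 to 16.2). Windows at the GC content of the gained peaks held it in 6.20% of cases and those at the GC content of the lost peaks in 3.78%. NFY, a factor of the CCAAT box (searched with either G or A as the first letter, the remainder being CCAATC), was present in 12.5% of gained peaks (74 of 594) and 1.81% of lost peaks (3 of 166), a difference of 10.7 points (95% interval 6.50 to 13.8), and in 2.35% and 2.57% of the GC-weighted windows. Among peaks of 45 to 55% GC, a range chosen after these values were seen, NFY was present in 14.7% of gained (53 of 360) and 0.85% of lost peaks (1 of 117), and KLF in 6.94% and 1.71%. Only 6 gained peaks held both. Beyond 100 kb from a TSS the interval of the difference included 0 for NFY (5.80 points, -2.41 to 11.5) and KLF (8.99 points, -0.21 to 15.7). The KLF share of gained peaks minus that of gained peaks at 3 to 50 kb from a TSS was -4.77 points (95% interval -7.82 to -1.36). Both motifs also separated the lists among intergenic peaks at 3 to 50 kb, so the separation was not particular to far intergenic peaks. There NFY was present in 12.9% of gained and 1.72% of lost peaks, and KLF in 19.9% and 4.86%.

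Motifs of the cardiac factors were frequent in gained peaks relative to windows of the same GC content, and the intervals of most differences between the lists included 0. GATA (searched as AGATAA) was present in 15.8% of gained (94 of 594) and 12.05% of lost peaks (20 of 166), against 5.14% and 6.74% of GC-weighted windows. MEF2 was present in 3.87% and 1.81%, against 0.46% and 0.76%. NKX2 (searched as TNAAGTG) was present in 11.95% and 11.4%, against 6.79% and 7.82%. SRF, the serum response factor, was present in 3.37% and 0.60%, against 0.57% and 0.71%. TBX (searched as AGGTGTGA) was present in 2.19% of gained peaks and in none of the 166 lost peaks (95% upper limit 2.26%), against 0.84% and 0.81%. Without GC weighting, eligible windows held GATA in 13.2%, MEF2 in 4.40%, NKX2 in 9.78%, SRF in 0.91% and TBX in 0.53% of cases. The MEF2 share of gained peaks was thus below that of unweighted windows. For each of these 5 motifs the interval of the difference between the lists included 0. It left out 0 for SRF under 4 of 13 alternatives (2.73 points, 95% interval 1.08 to 3.88, at 25 kb), for TBX under 3 (7.89 points, 95% interval 1.23 to 13.3, with 1 mismatch) and for MEF2 under 2 (3.25 points, 95% interval 1.65 to 4.44, with protein-coding transcripts alone). At least 2 different motifs of the 7 cardiac ones (these 5, TEAD and the E-box) were present in 9.93% of gained peaks (59 of 594) and 4.22% of lost peaks (7 of 166), a difference of 5.72 points (95% interval 0.97 to 9.15). Neither window shares nor alternatives were computed for this share or for pairs of motifs. GATA with NKX2 was the most frequent pair in gained peaks, in 17 of 594, and was present in 2 of 166 lost peaks. In gained peaks, NKX2 was 3.61 points (95% interval 1.02 to 6.62) and TBX 1.03 points (95% interval 0.02 to 2.59) more frequent in the far intergenic set than at 3 to 50 kb. For the other cardiac motifs the interval of this difference included 0. The values were 2.64 points for GATA, 0.27 for SRF, -0.25 for MEF2, -0.56 for the E-box and -1.2 for TEAD.

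The gained peaks with at least 2 cardiac motifs and the highest scores began with that between *Cd109* and *Col12a1* (176). The *Gata6* peak described above (170.5) and the peak between *Gm11077* and *Pde3a*, a phosphodiesterase gene of the heart (168), followed. The fourth, at 113 kb from *Kif26a* (125), and the fifth, between *Npvf* and *Nfe2l3* (120.5), both held GATA and NKX2 motifs. The values in parentheses are scores.

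Of the motifs with a higher share in lost peaks, AP-1 and the E-box had an interval of the difference that left out 0. AP-1, the motif of Jun and Fos (searched as TGANTCA), was present in 10.8% of lost (18 of 166) and 5.22% of gained peaks (31 of 594), a difference of -5.62 points (95% interval -11.5 to -1.22), against 4.98% and 4.38% of GC-weighted windows. The E-box (searched as CAGCTG) was present in 19.9% of lost (33 of 166) and 13.5% of gained peaks (80 of 594), a difference of -6.41 points (95% interval -13.6 to -0.28), against 9.87% and 11.9%. The E-box interval included 0 under 9 of 13 alternatives and that of AP-1 under 5 of 13. TEAD, the motif of the Hippo pathway's factors (searched as ACATTCC), was present in 7.23% of lost and 4.04% of gained peaks (difference -3.19 points, 95% interval -8.34 to 0.40), against 2.41% and 2.18%. Its interval left out 0 under 4 of 13 alternatives (-3.62 points, 95% interval -7.14 to -0.81, at 25 kb).

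CTCF, the insulator protein that bounds chromatin loops, had its motif in 4 lost (2.41%) and 5 gained peaks (0.84%), a difference of -1.57 points (95% interval -5.22 to 0.28), against 0.13% and 0.21% of GC-weighted windows. The interval left out 0 under 3 of 13 alternatives (-2.71 points, 95% interval -5.11 to -1.21, at 25 kb). The lost peaks had scores of 41.2 between *Adra1b* and *Il12b*, 39.7 at 122 kb from *Dkk2*, a Wnt antagonist gene, 32.6 at 59.5 kb from *Ccng2*, and 31.7 between *Nudt10* and *Bmp15*. The ETS motif (searched as ACAGGAAG) was present in 3.03% of gained and 3.61% of lost peaks, against 2.14% and 2.05% of GC-weighted windows. The SOX motif (searched as CCATTGTT) was present in 0.84% and 2.41%, against 0.52% and 0.63%. The FOX motif (searched as TGTTTAC) was present in 1.18% and 2.41%, against 1.28% and 1.61%. For these 3 motifs the intervals of the difference between the lists included 0. The SOX interval left it out under 4 of 13 alternatives (-5.21 points, 95% interval -14.6 to -1.46, at the common score limit), and the FOX interval with 1 mismatch allowed (-13.9 points, 95% interval -22.3 to -5.87).

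**Figure D5:**
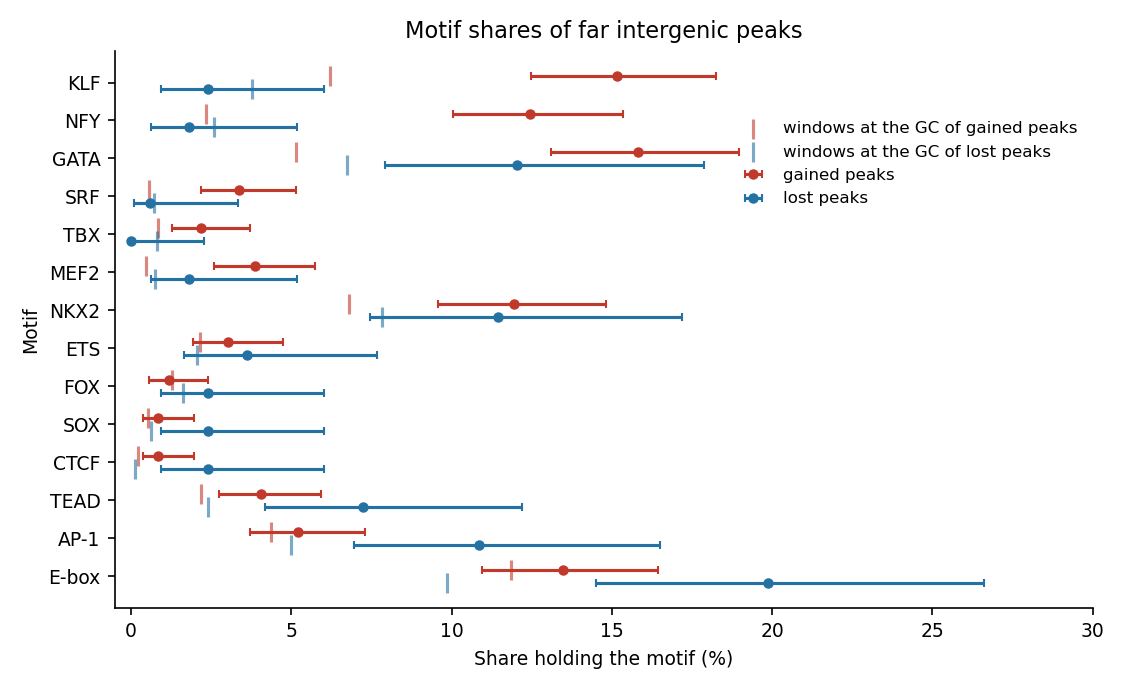
Share (%) of far intergenic peaks that hold each of 14 motifs, for 594 gained (red) and 166 lost (blue) peaks, with Wilson 95% intervals. Upright ticks give the share of eligible windows weighted to the GC content of the same peaks, and motifs are ordered by the difference between the lists. KLF and NFY lie far apart (15.2% against 2.41% and 12.5% against 1.81%), and GATA lies above its ticks in both lists.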

How the data were processed

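The authors used BWA-MEM for alignment to mm10, HOMER 4.10.3 for peak calling and ChIP-Seeker 1.20.0 for annotation. Per the labels and methods, the differential lists used a fold-change limit. How the samples were combined, and how duplicates and the Tn5 offset were handled, is not stated, and each can change which peaks pass. The deposited value is a score per peak on a scale that is not stated, so scores were used within a list, except under 1 alternative. Read depth per sample is unknown from these lists.

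The mm10 coordinates were used with the RefSeq copy of GRCm38, which is the same build. Its repeat marks are NCBI's, not UCSC's. Distances ran from the peak's nearest edge to any GENCODE M21 TSS. Flanking genes were the nearest protein-coding gene bodies on either side. Windows were all end-to-end stretches of the peak width that met the rule and held no unsequenced base. GC weighting used classes of 5%. Motif matches were exact. The far intergenic rule, gene lists (4), motifs (14) and tests were chosen with earlier results of these data known. Named peaks and gaps were the 5 highest scores of each list, the 5 gaps with most gained and with most lost peaks (ties by number), every gap beside a cardiac factor gene, and the 3 peaks of each list farthest from a TSS. Named too were the 5 highest gained scores with at least 2 cardiac motifs (fewer than 5 had 3), lost peaks with a CTCF motif, and the 5 gaps with most peaks of both lists. Some gaps this rule names are not reported here. Statistics used Python 3.11.15, numpy 2.4.6 and pandas 2.3.3, and were tested on simulated data.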

Additional observations from a re-analysis of the deposited data

How the results depend on the processing

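No paired analysis was possible because the lists hold no value per sample. No replicate could be left out for the same reason. The GC difference between gained and lost peaks and the difference in close neighbours kept their direction, with intervals that left out 0, under all 11 alternatives run for each. The lower gained share of far intergenic peaks and the lower far intergenic share of the gained list did so under 10 of 11. Under the common score limit they were -0.031 and -0.012 points, and the cause was not tested.

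The numbers of gained and lost peaks followed the rule. They were 169 and 65 beyond 100 kb, 1374 and 364 beyond 25 kb, 2084 and 534 with protein-coding transcripts alone, and 187 and 55 at or above each list's median score. The common score limit left 55 lost peaks. The desert difference left out 0 at 25 kb (-7.08 points), with protein-coding transcripts alone (-7.17), with no repeat limit (-8.86) and with deserts of at least 1 Mb (-12.6), and reversed to 1.28 under the common score limit. The developmental factor difference left out 0 at 25 kb (6.90 points), with protein-coding transcripts alone (5.69) and without the 73 gained and 19 lost peaks that overlap a RefSeq gene (7.05), an alternative chosen after seeing the data.

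Of 14 motif differences, 4 left out 0, against 0 beyond 100 kb, 8 beyond 25 kb, 9 with protein-coding transcripts alone and 2 in the central part of each peak. Reversed values, all with intervals that included 0, were 0.47 points for signalling genes by nearest protein-coding TSS alone, 5.09 for neuronal and adhesion genes beyond 100 kb, -0.21 and -0.84 for GATA (scores at or above the list median, 1 mismatch), -0.99 for NKX2 at 25 kb and 0.96 for ETS with 1 mismatch.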
